A study of Mus musculus with 30 samples.

Results

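Fgf5, Otx2, Pou3f1, Zic2, Foxd3 and Pim2 are genes by which the formative and primed stages of the epiblast are told from naive pluripotency. The array carried 7 probes whose gene symbol was 1 of these 6 names, out of 25697 probes and 18097 symbols, with 2 probes for Pim2 and 1 for each other gene. They were followed on 30 Illumina mouse WG-8 arrays, on which biotin-labelled cRNA was hybridised. All RNA came from Ainv15 mouse embryonic stem cells (ESCs), a line that expresses the doxycycline (Dox) responsive transactivator rtTA, and the labels give the strain background 129P2/OlaHsd for the control samples.

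In each rescue clone a constitutive shRNA targeted 1 endogenous mRNA, and Dox at 1 μg/ml switched on a cDNA of the same gene that the shRNA cannot recognise. Bub1b_R, Chek1_R, Ppm1g_R and Ppp2r1b_R were each sampled with Dox (+Dox) and after 5 days without it (−Dox), and so was the control rescue clone Ctrl_R, with 3 arrays per group and 10 groups. Bub1b is a spindle checkpoint kinase, Chek1 a DNA damage checkpoint kinase, Ppm1g a phosphatase and Ppp2r1b a scaffold subunit of the phosphatase PP2A. The clones were kept on embryonic fibroblasts with LIF and, per the study's methods, without feeder cells for the 5 days with or without Dox. Per the study's methods 3 clones were derived separately per rescue gene, but the sources do not say whether the 3 arrays of a group are those clones or separate cultures, so the p-values measure the spread between these samples, which may be technical. Precision is limited by having 3 arrays in a group.

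Naive ESCs correspond to the epiblast before implantation. On leaving that state they pass a formative phase, in which Otx2 and the POU factor Pou3f1 (also called Oct6) act on enhancers of the next stage, and then a primed phase like the epiblast after implantation, of which the growth factor Fgf5 is the classical marker. Primed cells can go on to the primitive streak or to neural plate. Zic2 is a zinc finger factor, Foxd3 a forkhead factor and Pim2 a serine/threonine kinase related to the LIF target Pim1.

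The shRNA target sequences define the 4 clones, and are given here from the study's list of constructs, 5′ to 3′ and in lower case throughout.
Bub1b_R: gcacacttagacacatcagca
Chek1_R: cccatgtagtagtatcacttt
Ppm1g_R: gccttgtactgtgccaaatat
Ppp2r1b_R: gctccgtctcaacagtattaa
Each is 21 bases long.

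RefSeq promoters were at hand for 4 of the 6 genes, Fgf5, Otx2, Foxd3 and Pim2. The stretches of 250 bases before the start of Fgf5 (GRCm38.p6, chr5:98253934-98254183, plus strand) and of Pim2 (chrX:7878056-7878305, plus strand) are shown because these were the members higher in Bub1b_R after Dox withdrawal. Capitals mark, on either strand, the letters of the octamer ATGCAAAT bound by POU factors, the TCF/LEF motif CTTTGAT, the OTX core TAATCC and the T-box element AGGTGTGA. No marked matches overlap.
Fgf5: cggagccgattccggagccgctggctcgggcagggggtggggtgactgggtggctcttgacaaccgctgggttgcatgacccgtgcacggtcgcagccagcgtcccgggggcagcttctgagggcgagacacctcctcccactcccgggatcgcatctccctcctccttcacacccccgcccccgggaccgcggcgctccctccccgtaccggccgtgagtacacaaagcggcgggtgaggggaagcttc
Pim2: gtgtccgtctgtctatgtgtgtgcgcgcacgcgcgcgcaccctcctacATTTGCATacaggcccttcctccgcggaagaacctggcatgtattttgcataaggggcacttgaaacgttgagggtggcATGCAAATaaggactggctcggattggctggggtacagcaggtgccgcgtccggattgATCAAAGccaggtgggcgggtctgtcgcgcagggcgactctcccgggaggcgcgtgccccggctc
The Pim2 stretch held 2 octamers and 1 CTTTGAT, and the Fgf5 stretch held none of the 4 motifs. Among 32851 RefSeq promoters cut to the same 250 bases, 1.6% held the octamer, 3.21% CTTTGAT, 6.25% TAATCC and 1.12% AGGTGTGA. A match is a string of letters and not a measured site.

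Intensities are printed as deposited, corrected for background by the authors and not yet normalized between arrays. Levels are log2 values after normalization of all 30 arrays together, and differences between groups are on the same log2 scale. A probe was detected on an array where its detection p was under 0.05, and between 11733 and 13685 probes per array were detected. Called means an adjusted p under 0.05 in limma's moderated test, adjusted by Benjamini and Hochberg's method over the 15151 probes detected on at least 3 arrays, and a difference of at least 1.5-fold. Of the 6 genes, 5 passed that filter through 6 probes and Foxd3 did not. The brighter of the Pim2 probes stands for the gene in every count.

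The lowest signal that was still detected ranged from 12.9 to 20.9 across the 12 Bub1b_R and Ctrl_R arrays and from 27.8 to 58.1 across the remaining 18. Comparisons of Chek1_R, Ppm1g_R and Ppp2r1b_R with Ctrl_R cross these array sets, and clone and set cannot be told apart there. Changes on Dox withdrawal stay within a set. Bub1b_R and Ctrl_R are put in 1 set by this signal alone. The Ctrl_R samples carry earlier sample numbers than those of the 4 clones and may come from an earlier series, since the study also names public array data that it used, and clone and time of hybridisation cannot be told apart there either.

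As a check of the labels, the targeted genes were read first. Ppm1g had levels of 9.76, 9.76 and 9.82 with Dox and 8.61, 8.40 and 8.59 without it in Ppm1g_R, a 2.37-fold fall (adjusted p = 4.5e-09). Chek1 was detected on 0 of 3 samples labelled Chek1_R with Dox (levels 5.32, 5.20 and 5.40) and on all 3 without Dox (6.08, 6.24 and 5.72), which goes against the label if the probe reads the rescue cDNA, and in Ctrl_R it lay at 7.05 to 7.34. These 6 samples are therefore called the samples labelled Chek1_R. If their Dox labels were exchanged, every change on withdrawal given for them would keep its size and turn its sign, while differences from Ctrl_R, from the change in Ctrl_R and means over the clones would take other values. Whether the labels were exchanged was not tested. T (Brachyury) and Evx1, described with the primitive streak genes, changed there in the same direction as in the other 3 clones. By qRT-PCR the study reports higher Fgf5, T and Mixl1 after Dox removal in its rescue clones. Bub1b differed by -0.14 on the log2 scale between −Dox and +Dox in Bub1b_R (adjusted p = 0.22) and was 1.62-fold below Ctrl_R with Dox and 1.59-fold below it without Dox, both called. Ppp2r1b differed by 0.20 in Ppp2r1b_R (adjusted p = 0.37) and was 1.53-fold below Ctrl_R with Dox and 1.19-fold below it without Dox, the latter not called (adjusted p = 0.16), in comparisons that cross the array sets described above. The study states that the rescue cDNAs of Chek1 and Bub1b lacked the shRNA target, which goes with leaving out the untranslated 3′ end. Those of Ppm1g and Ppp2r1b carried silent changes at the shRNA site. A Chek1 or Bub1b probe in the untranslated end would read the endogenous mRNA alone and could not check the Dox label, and where these probes lie is not given in the sources used here.

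**Figure D1:**
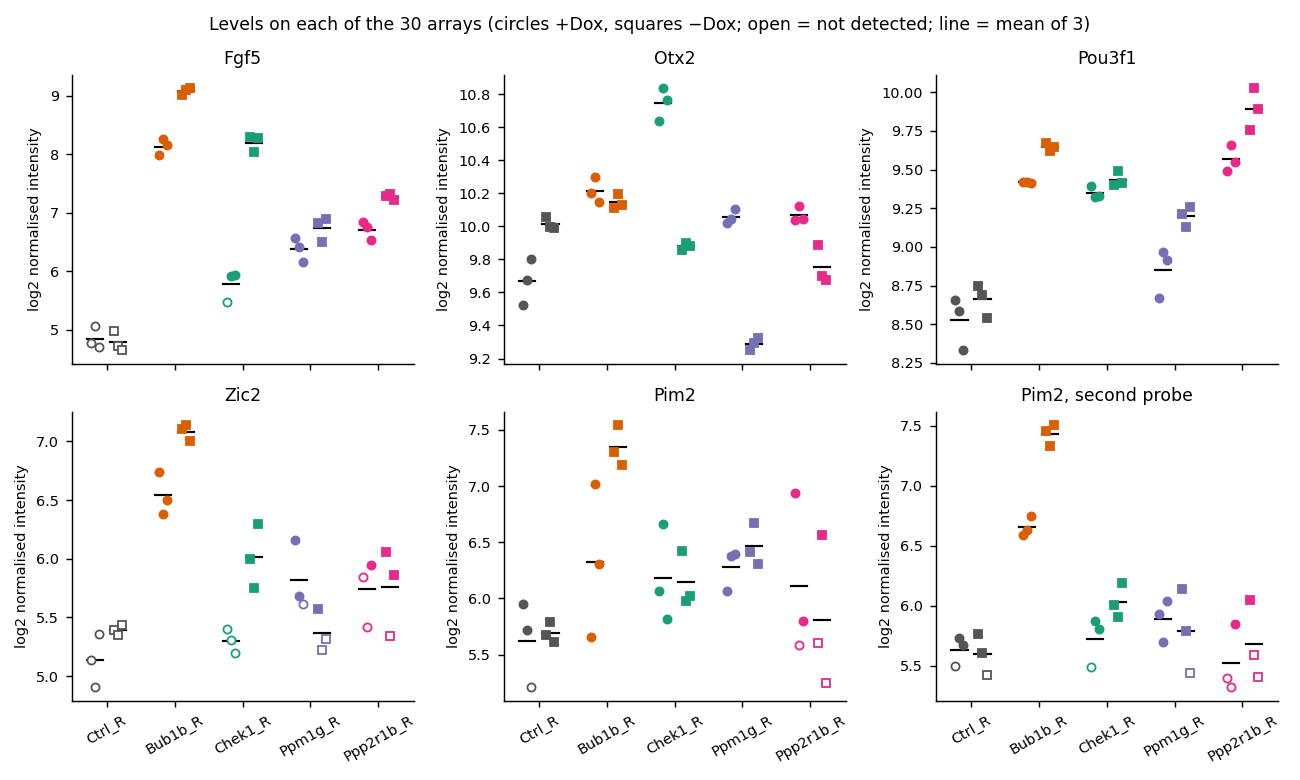
Normalised log2 intensity (y axis) of the 6 probes that passed the detection filter on each of the 30 arrays, by clone (x axis), with circles for +Dox, squares for −Dox, open symbols where the probe was not detected and a line at the mean of 3 arrays; the y scales differ between panels. Fgf5 is open on all 6 Ctrl_R arrays and highest in Bub1b_R without Dox, while Otx2 is highest on the samples labelled Chek1_R with Dox and lowest in Ppm1g_R without Dox.

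The first question was how the members changed when Dox was withdrawn and the rescue cDNA switched off. The members did not move as a block: Fgf5 rose in Bub1b_R and on the samples labelled Chek1_R, Otx2 fell on the samples labelled Chek1_R and in Ppm1g_R, Pim2 rose in Bub1b_R and Zic2 on the samples labelled Chek1_R, and Pou3f1 was called nowhere. Of 20 gene and clone pairs tested, 6 were called, 4 higher and 2 lower. Without the samples labelled Chek1_R 3 were called, 2 higher and 1 lower, and with their Dox labels exchanged 3 were higher and 3 lower. In Bub1b_R 2 of 5 tested members were called, against 6.24% of the 11177 genes tested. On the samples labelled Chek1_R 3 of 5 were called, against 9.92% of all genes, and in Ppm1g_R 1 of 5, against 4.63%. In Ppp2r1b_R 0 of 5 were called against 4.97%, with 3 of 5 at an unadjusted p under 0.05 in limma and in the methods' t-test. In Ctrl_R 0 of 5 were called against 1.15%, with 1 of 5 at an unadjusted p under 0.05 by either test. By the t-test 2926 of the 11177 genes had such a p in Ppp2r1b_R and 2140 in Ctrl_R. The median change of the 5 tested members was 0.54 in Bub1b_R, 0.09 on the samples labelled Chek1_R, 0.18 in Ppm1g_R, 0.02 in Ppp2r1b_R and 0.14 in Ctrl_R, where that of all genes lay between -0.02 and -0.01.

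Fgf5, the secreted growth factor that marks the primed epiblast, spanned the widest range of levels among the members. In Ctrl_R its intensities were -0.5, 7.5 and -4.1 with Dox and 5.5, -2.3 and -6.3 without Dox, and it was detected on none of these 6 arrays. In Bub1b_R the intensities were 200.4, 235.5 and 188.4 with Dox and 470.6, 437.1 and 527.1 without it. The groups did not overlap, and the rise was 1.93-fold (log2 0.95 ± 0.13 SE, adjusted p = 8.5e-06). Without further background correction the difference was 0.99 and the call was lost (adjusted p = 0.33).

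On the samples labelled Chek1_R, Fgf5 had intensities of 31.1, 54.8 and 49.1 with Dox, the first of them not detected, and 289.8, 403 and 361.3 without Dox. This 5.35-fold rise (log2 2.42 ± 0.13, adjusted p = 5.7e-13) was the largest change of any member on withdrawal, a rank that holds in size under either Dox label; without these 6 samples the largest was that of Pim2 in Bub1b_R (log2 1.02). In Ppp2r1b_R the normalised levels were 6.84, 6.76 and 6.54 with Dox and 7.29, 7.32 and 7.22 without it. All 3 −Dox arrays were above all 3 +Dox arrays, but the 1.47-fold difference lay just under the fold limit (log2 0.56 ± 0.13, adjusted p = 0.0031). It passed the limit without Ppp2r1b_R −Dox replicate 3 (log2 0.59) or without Ppp2r1b_R +Dox replicate 1 (log2 0.62). In Ppm1g_R the levels were 6.56, 6.41 and 6.16 with Dox and 6.83, 6.50 and 6.89 without it, which overlap, and the difference of 0.36 was not called (adjusted p = 0.051).

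The mean change of Fgf5 over the 4 clones was 2.10-fold (log2 1.07 ± 0.07, adjusted p = 2.6e-12), where 4.04% of all genes were called, and it was the 1 member called in that mean. Without the samples labelled Chek1_R it was 0.62 (adjusted p = 1.0e-06), and with their Dox labels exchanged it was -0.14 and not called (adjusted p = 0.16). The change of Fgf5 differed among the 4 clones in limma's F-test (F = 48.7, adjusted p = 5.5e-08), which called 3 of 5 members and 26.0% of all genes, but among the other 3 clones the adjusted p was 0.072.

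Otx2, the homeobox factor of the formative transition, was detected on all 30 arrays and moved the other way. On the samples labelled Chek1_R its levels were 10.64, 10.84 and 10.76 with Dox and 9.85, 9.90 and 9.88 without it, a 1.83-fold fall (log2 -0.87 ± 0.07, adjusted p = 3.8e-10). In Ppm1g_R they were 10.02, 10.04 and 10.10 with Dox and 9.25, 9.29 and 9.33 without it, a 1.70-fold fall (log2 -0.77 ± 0.07, adjusted p = 1.7e-08). Neither pair of groups overlapped.

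In Ppp2r1b_R Otx2 lay at 10.03, 10.12 and 10.04 with Dox and at 9.88, 9.70 and 9.67 without it, with no overlap and a difference of -0.32 that was under the fold limit (adjusted p = 0.0014). In Bub1b_R the groups overlapped and the difference was -0.07, with a 95% interval from -0.21 to 0.07. In Ctrl_R Otx2 lay at 9.53, 9.67 and 9.80 with Dox and at 10.06, 10.00 and 9.99 without it. All 3 −Dox arrays of Ctrl_R were thus the higher ones, by 0.35, also under the fold limit (adjusted p = 0.0022). The change of Otx2 differed among the 4 clones (F = 30.5, adjusted p = 2.3e-06), and among the other clones without the samples labelled Chek1_R (adjusted p = 0.00035).

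Pou3f1, the POU factor that accompanies Otx2 in formative cells, was detected on all 30 arrays. In Ppp2r1b_R its levels were 9.49, 9.66 and 9.55 with Dox and 9.76, 10.03 and 9.89 without it. In each of the 4 clones all −Dox arrays lay above all +Dox arrays, and none of the differences reached 1.5-fold. They were 0.35 in Ppm1g_R (adjusted p = 0.0038), 0.32 in Ppp2r1b_R (adjusted p = 0.0062), 0.23 in Bub1b_R (adjusted p = 0.053) and 0.09 on the samples labelled Chek1_R (adjusted p = 0.50), and the difference in Ctrl_R was 0.14 (adjusted p = 0.37). The change was not called different among the clones (F = 1.99, adjusted p = 0.29), but with the Dox labels of the samples labelled Chek1_R exchanged it was (F = 5.596, adjusted p = 0.014).

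Zic2 was dim, and Bub1b_R was the 1 clone with all 6 arrays detected. On the samples labelled Chek1_R its intensities were 27.8, 26.2 and 18.3 with Dox, not detected, and 46.4, 61.3 and 77.9 without Dox, detected on all 3. The rise was at least 1.35-fold, where at least marks a bound that takes the lowest detected signal of each array for the undetected group (log2 0.71 ± 0.18 in the fit, adjusted p = 0.0028). That bound is under the fold limit, so the call rests on the fit. Without Chek1_R −Dox replicate 3 the difference was 0.57, under the fold limit.

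In Bub1b_R Zic2 had intensities of 75.1, 51.1 and 49.8 with Dox and 108, 97.3 and 99.2 without it, with no overlap, and the difference of 0.54 (adjusted p = 0.025) was under the fold limit. Without Bub1b_R +Dox replicate 1 it was 0.64 and passed. In Ppm1g_R Zic2 was detected on 2 of 3 arrays with Dox and 1 of 3 without it, and the difference was -0.45 (adjusted p = 0.066). The change of Zic2 differed among the 4 clones (F = 9.09, adjusted p = 0.0039), and among the other 3 (adjusted p = 0.031).

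Pim2 had 2 probes. The brighter gave intensities of 25.8, 90.6 and 41.4 in Bub1b_R with Dox and 126.3, 134.4 and 117.2 without it. The groups did not overlap, and the rise was 2.03-fold (log2 1.02 ± 0.34, adjusted p = 0.028). It lost the call without Bub1b_R −Dox replicate 1 (adjusted p = 0.059), −Dox replicate 2 (0.097), +Dox replicate 1 (0.19) or +Dox replicate 3 (0.066), without further background correction, where the difference was larger (log2 1.23, adjusted p = 0.081), in a fit to only the arrays compared (0.061), in the methods' t-test after adjustment (0.18) and with an offset of 200, where it fell under the fold limit (log2 0.37). The second probe was tighter in Bub1b_R, with 66.6, 65.5 and 62.1 with Dox and 143.4, 114.4 and 152.4 without it, a 1.71-fold rise (log2 0.77 ± 0.17, adjusted p = 0.0011). In the other clones and in Ctrl_R neither probe was called, and for the brighter the differences ran from -0.30 in Ppp2r1b_R to 0.18 in Ppm1g_R. The probes disagreed on whether the change differed among the clones, with an adjusted p of 0.15 for the brighter and 0.043 for the second.

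Foxd3 was detected on 0 of 30 arrays, with intensities between -12.7 and 21.3, and gave no difference that could be tested. These values show that its probe was not above background, not that the transcript was absent.

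**Figure D2:**
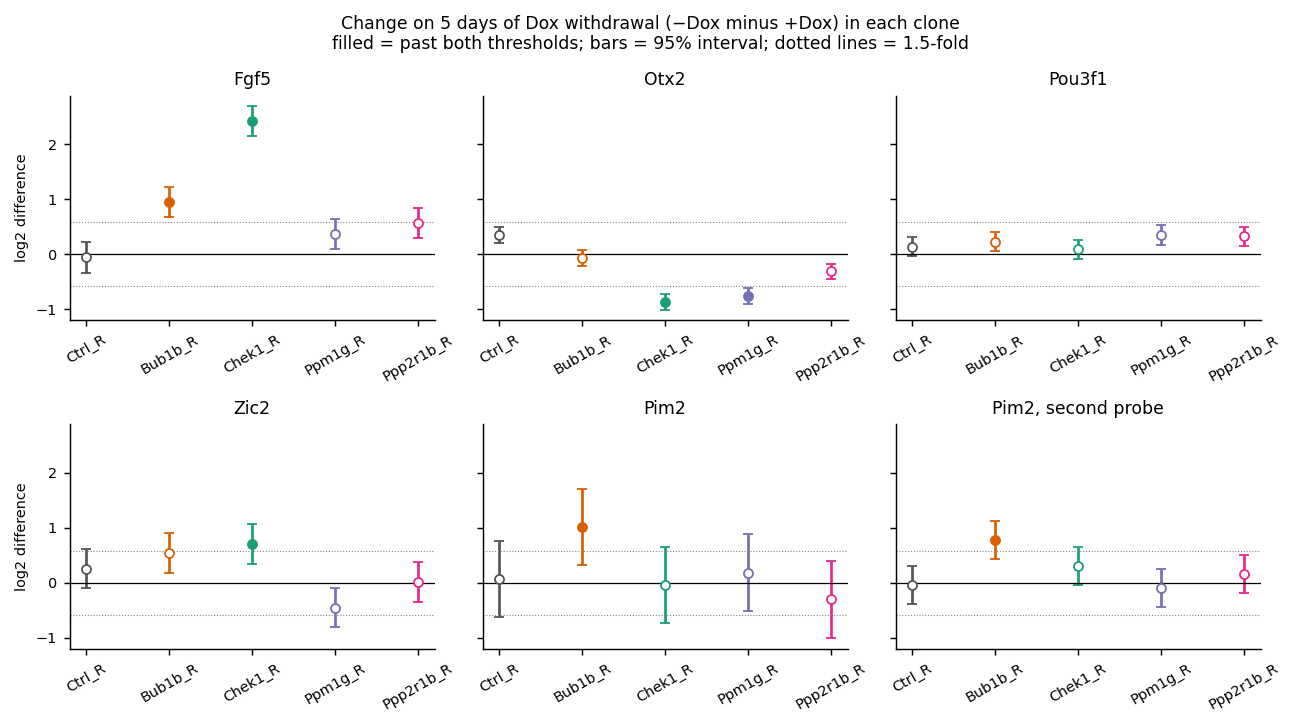
Log2 difference between −Dox and +Dox (y axis) in each clone (x axis) for the 6 probes, with the 95% interval from the fit, filled symbols where called and dotted lines at 1.5-fold in either direction. Fgf5 lies at 0.95 in Bub1b_R and 2.42 on the samples labelled Chek1_R, whereas Otx2 lies at -0.87 on the samples labelled Chek1_R and -0.77 in Ppm1g_R.

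The changes were then set against those in Ctrl_R, by subtracting the change seen in the control clone. These 4 comparisons share the 6 Ctrl_R arrays. Called differences numbered 1 of 5 in Bub1b_R (5.56% of all genes), 2 of 5 on the samples labelled Chek1_R (9.60%), 1 of 5 in Ppm1g_R (5.56%) and 2 of 5 in Ppp2r1b_R (3.42%). All of them were in Fgf5 and Otx2, but with the Dox labels of the samples labelled Chek1_R exchanged those called there were Fgf5 and Zic2 (log2 -0.97, adjusted p = 0.0043). Fgf5 rose more than in Ctrl_R by 1.01 in Bub1b_R (adjusted p = 0.00079), 2.48 on the samples labelled Chek1_R (adjusted p = 7.1e-10; -2.36 with their Dox labels exchanged) and 0.62 in Ppp2r1b_R (adjusted p = 0.041). Since the probe was undetected in Ctrl_R, these values rest on Ctrl_R levels near background. For Ppp2r1b_R the call was lost without any 1 of 9 of the 12 arrays, all but Ctrl_R +Dox replicate 3, Ctrl_R −Dox replicate 1 and Ppp2r1b_R +Dox replicate 1, with an adjusted p of up to 0.11. With the replicate numbers as a block its adjusted p was 0.053. Without further background correction the Fgf5 calls in Bub1b_R (adjusted p = 0.48) and Ppp2r1b_R (adjusted p = 0.65) were both lost.

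Otx2 differed from the Ctrl_R change by -1.22 on the samples labelled Chek1_R (adjusted p = 1.6e-09; 0.52 and under the fold limit with their Dox labels exchanged), by -1.11 in Ppm1g_R (adjusted p = 7.3e-08) and by -0.66 in Ppp2r1b_R (adjusted p = 0.00010). In Bub1b_R the difference was -0.42, under the fold limit (adjusted p = 0.0049). Zic2 in Ppm1g_R had the difference of -0.71 with an adjusted p of 0.064, which fell to 0.040 without Ctrl_R +Dox replicate 3, to 0.044 without Ppm1g_R −Dox replicate 1 and to 0.049 without Ppm1g_R +Dox replicate 3. For Pou3f1 the differences lay between -0.05 and 0.21 and for the brighter Pim2 probe between -0.37 and 0.95, with no call, while the second Pim2 probe was called in Bub1b_R (0.81, adjusted p = 0.024).

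The clones also differed from Ctrl_R at the same Dox state, where larger shares of all genes were called as well. With Dox, when the rescue cDNA was on, 3 of 5 members were called higher in Bub1b_R (13.3% of all genes called in either direction), 3 on the samples labelled Chek1_R (17.7%), 2 in Ppm1g_R (28.8%) and 3 in Ppp2r1b_R (27.5%). Without Dox 4 were called in Bub1b_R (23.9%), 3 on the samples labelled Chek1_R (29.0%), 3 in Ppm1g_R (33.5%) and 2 in Ppp2r1b_R (33.1%). All of these were higher than in Ctrl_R except Otx2 in Ppm1g_R. For the 3 clones other than Bub1b_R these counts cross the array sets.

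Fgf5 was above Ctrl_R in all 4 clones at both Dox states. With Dox it was at least 6.10-fold higher in Bub1b_R (adjusted p = 2.3e-15), at least 1.19-fold on the samples labelled Chek1_R, at least 1.81-fold in Ppm1g_R and at least 2.28-fold in Ppp2r1b_R. Without Dox the bounds were 12.8-fold in Bub1b_R (adjusted p = 5.6e-18), 6.95-fold on the samples labelled Chek1_R, 2.53-fold in Ppm1g_R and 3.66-fold in Ppp2r1b_R. With the Dox labels of the samples labelled Chek1_R exchanged, their bounds were 6.39-fold with Dox and 1.30-fold without it, and their places in the order that follows would change over. In the order of the 10 group means Bub1b_R −Dox came first (9.08 ± 0.07 SD), followed by −Dox of the samples labelled Chek1_R (8.20 ± 0.14) and Bub1b_R +Dox (8.13 ± 0.14), whose arrays overlapped. Next came Ppp2r1b_R −Dox (7.28 ± 0.05), overlapped by no neighbour. Ppm1g_R −Dox (6.74 ± 0.21) and Ppp2r1b_R +Dox (6.72 ± 0.16) overlapped, the latter also with Ppm1g_R +Dox (6.38 ± 0.20), and the samples labelled Chek1_R with Dox (5.78 ± 0.26) stood just above the undetected Ctrl_R groups.

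Pou3f1 was lowest in Ctrl_R, at 8.66, 8.59 and 8.33 with Dox and 8.75, 8.69 and 8.54 without it. In Bub1b_R it lay at 9.42, 9.42 and 9.41 with Dox, 1.86-fold above Ctrl_R (adjusted p = 7.3e-09), and at 9.67, 9.62 and 9.65 without Dox, 1.98-fold above it (adjusted p = 5.8e-10). No array overlapped. The excess over Ctrl_R was 1.77-fold and 1.71-fold on the samples labelled Chek1_R and 2.06-fold and 2.35-fold in Ppp2r1b_R, with and without Dox respectively, and all 4 were called. With the Dox labels of the samples labelled Chek1_R exchanged, the differences there were 0.91 and 0.69 on the log2 scale and both were called. In Ppm1g_R the excess was 1.26-fold and 1.45-fold, under the fold limit. With median scaling the difference there without Dox was 0.62 on the log2 scale and was called (adjusted p = 4.8e-05).

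Otx2 was called above Ctrl_R with Dox on the samples labelled Chek1_R (2.12-fold, adjusted p = 1.1e-11) and not in the other 3 clones, where it was 1.31-fold to 1.46-fold higher with all 9 pairs of arrays in that direction. In Bub1b_R it passed the limit without Ctrl_R +Dox replicate 3 (log2 0.62) and with median scaling (log2 0.745, adjusted p = 2.0e-06). Without Dox it was called below Ctrl_R in Ppm1g_R, by 1.65-fold (adjusted p = 2.2e-09). Without Dox the samples labelled Chek1_R had a difference of -0.14 (adjusted p = 0.087), although the same clone was the highest of all with Dox. With the Dox labels of these samples exchanged, Otx2 differed from Ctrl_R by 0.21 with Dox, under the fold limit, and by 0.73 without Dox, where it was called (adjusted p = 9.6e-09).

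Zic2 was undetected on the 6 Ctrl_R arrays. In Bub1b_R the bound was 2.02-fold with Dox (adjusted p = 5.7e-07) and 3.20-fold without it (adjusted p = 1.5e-08). It was called in Ppm1g_R with Dox (log2 0.69), in Ppp2r1b_R with Dox (0.61) and on the samples labelled Chek1_R without Dox (0.62), each close to the limit. Since Zic2 was undetected in Ctrl_R the bounds were 1.23-fold, 1.16-fold and 1.53-fold in that order, the first and second of them under the fold limit, and in Ppp2r1b_R with Dox the probe was detected on 1 of 3 arrays. Those calls were lost for Ppm1g_R without Ctrl_R +Dox replicate 2 (0.57) or Ppm1g_R +Dox replicate 1 (0.52). They were lost for Ppp2r1b_R without Ctrl_R +Dox replicate 2 (0.49), Ppp2r1b_R +Dox replicate 1 (0.55) or replicate 3 (0.50), and for the samples labelled Chek1_R without their −Dox replicate 3 (0.48). With the Dox labels of those samples exchanged, Zic2 was called there with Dox (log2 0.88, a bound of 1.40-fold) and not without Dox (-0.090).

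Pim2 by its brighter probe was 3.14-fold above Ctrl_R in Bub1b_R without Dox (adjusted p = 0.00021), and 3.57-fold by the second probe (adjusted p = 1.6e-09). With Dox the brighter probe was 1.63-fold higher in Bub1b_R without passing the threshold (adjusted p = 0.10), was called without Bub1b_R +Dox replicate 1 (adjusted p = 0.023), and the second probe was 2.03-fold higher (adjusted p = 2.5e-05). The call of the brighter probe in Ppm1g_R without Dox (1.70-fold, adjusted p = 0.049) was lost on leaving out any of its 6 arrays, with an adjusted p between 0.060 and 0.14, and the second probe was not called there (1.14-fold).

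**Figure D3:**
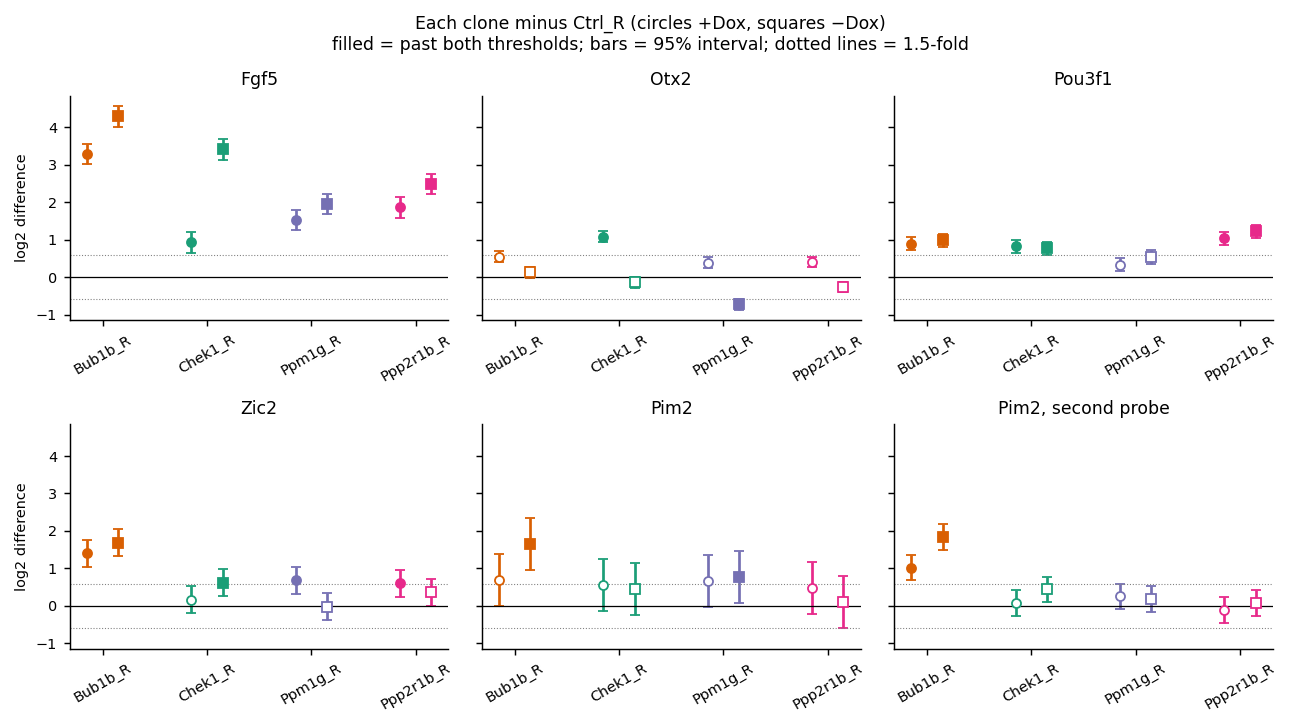
Log2 difference of each clone from Ctrl_R (y axis) with Dox (circles) and without Dox (squares) by clone (x axis), with the 95% interval, filled symbols where called and dotted lines at 1.5-fold; for the 3 clones other than Bub1b_R the comparison crosses the array sets. All 8 Fgf5 values are above 0 and filled, and Otx2 is filled above 0 on the samples labelled Chek1_R with Dox and below 0 in Ppm1g_R without Dox.

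The members also differed in how they varied together. Over the 30 arrays, after each clone's mean was taken out, Fgf5 and Otx2 had r = -0.74, Otx2 and Pou3f1 -0.53, Fgf5 and Zic2 0.56 and Fgf5 and Pou3f1 0.40, and the pairs with Pim2 lay between -0.03 and 0.25. The points share clones, Dox states and array sets, so these are descriptions. The samples labelled Chek1_R had the largest change on withdrawal of both Fgf5 (2.42) and Otx2 (-0.87). In Bub1b_R Fgf5 changed by 0.95 and Otx2 by -0.07. The correlations were not computed without the samples labelled Chek1_R. By the same measure the genes most like Fgf5 were Bgn (0.96), Defcr-rs7 (0.96) and Gbp6 (0.96), and most like Otx2 were Pde1b (0.89), Il27ra (0.87) and Thy1 (0.87). For Pou3f1 they were Tmem49 (0.86), 2310047D13Rik (0.82) and Phlda1 (0.82), for Zic2 Trpc4ap (0.72), Tsen34 (0.71) and 9130227C08Rik (0.71), and for Pim2 Creb5 (0.76), LOC669660 (0.67) and Taf11 (0.65). Names are those of the array's design.

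Other genes of the formative and primed stages moved in both directions on withdrawal. Of 20 listed genes 15 were tested, and 2 rose and 1 fell in Bub1b_R, 2 rose and 3 fell on the samples labelled Chek1_R, 2 rose and 0 fell in Ppm1g_R and 1 rose and 2 fell in Ppp2r1b_R. In Ctrl_R 0 were called, with 6 at an unadjusted p under 0.05 in limma and 5 in the methods' t-test. Fst, a secreted activin antagonist, rose in all 4 clones (log2 2.14, 3.32, 1.09 and 1.64 in the order Bub1b_R, samples labelled Chek1_R, Ppm1g_R, Ppp2r1b_R). Lef1, the nuclear partner of beta-catenin, rose in Bub1b_R (1.30) and on the samples labelled Chek1_R (0.87). Utf1, a chromatin protein of pluripotent cells, fell in Bub1b_R (-0.63), on the samples labelled Chek1_R (-0.80) and in Ppp2r1b_R (-0.68). Fst and Lef1 were undetected on the samples labelled Chek1_R with Dox, so there the rise was at least 7.98-fold for Fst and at least 1.19-fold for Lef1, the latter under the fold limit. The median pooled change of the 15 genes was -0.01, against -0.02 over all genes.

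Genes of the primitive streak, the tissue that follows the primed epiblast, rose in most cases. Of 12 tested, 11 rose on the samples labelled Chek1_R, 10 in Bub1b_R, 8 in Ppm1g_R and 5 in Ppp2r1b_R, and none fell in these clones, while in Ctrl_R 2 rose and 1 fell. Genes undetected with Dox had little room to fall. Mixl1, Lhx1 and Mesp1 were so in Ppm1g_R, and with Eomes also on the samples labelled Chek1_R and in Ppp2r1b_R. Eomes and Lhx1 were so in Bub1b_R. In Ppm1g_R the bounds for Lhx1 (1.21-fold) and Mesp1 (1.31-fold) were under the fold limit. T (Brachyury), the mesoderm T-box factor, rose by 2.31, 4.44, 1.05 and 1.90 on the log2 scale in the same order of clones as Fst, and by 0.75 in Ctrl_R. Evx1 rose by 2.38, 4.10, 1.60 and 1.54 and was not called in Ctrl_R (-0.28). Mixl1 rose by 3.24 in Bub1b_R. It was undetected with Dox on the samples labelled Chek1_R and in Ppm1g_R, where the rise was at least 3.67-fold and at least 3.42-fold, and it was undetected at both Dox states in Ppp2r1b_R. Eomes, a T-box factor counted among the 5 genes called in Ppp2r1b_R, was likewise undetected there at both Dox states, so that call rests on values below detection. The summed level of the 12 genes, the total of their normalised linear intensities on an array, was 2619 to 2689 in Bub1b_R with Dox and 9529 to 9756 without it, and 786 to 817 and 812 to 845 in Ctrl_R. It was 930 to 980 and 7361 to 7898 on the samples labelled Chek1_R, 2841 to 2998 and 5411 to 5676 in Ppm1g_R, and 1662 to 1735 and 4037 to 4457 in Ppp2r1b_R. The Fgf8 probe was the brightest of them in every group.

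Naive and core pluripotency genes were measured beside them. Of 11 naive genes tested, 2 fell in Bub1b_R, 1 in Ppm1g_R, 5 in Ppp2r1b_R and 1 in Ctrl_R, and on the samples labelled Chek1_R 1 rose and 1 fell. Fgf4, an ESC growth factor, fell in Bub1b_R (-0.96), on the samples labelled Chek1_R (-0.91) and in Ppm1g_R (-0.75), and Tcl1, a cofactor of the kinase Akt, fell in Bub1b_R (-0.87) and Ppp2r1b_R (-0.97). Esrrb, whose probe was the brightest of the naive genes, fell in Ppp2r1b_R (-0.83). In Ctrl_R, Tcl1 changed by -0.39 (adjusted p = 6.8e-05), Esrrb by -0.31 (adjusted p = 0.0029) and Fgf4 by 0.06 (adjusted p = 0.76), all under the fold limit. Of 5 core genes tested, 0 were called in any clone by limma, because those that passed the adjusted p, 2 each in Bub1b_R, Ppm1g_R and the samples labelled Chek1_R and 4 in Ppp2r1b_R, were all under the fold limit. Dppa4, for example, was at -0.58 on the samples labelled Chek1_R (adjusted p = 5.3e-07). At an unadjusted p under 0.05 there were 3 or 4 in each clone, the t-test gave 2 to 4, and all 5 were detected on every array. The median pooled change of the core genes was -0.33, and -0.16 with the Dox labels of the samples labelled Chek1_R exchanged. Their median change in Ctrl_R was also -0.16. Prdm14 and Nr0b1 were undetected in every group.

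Genes of FGF and ERK signalling, which drives the exit from the naive state, passed the adjusted p more often than they were called. Of 10 tested, the adjusted p was passed by 5 in Bub1b_R, 5 on the samples labelled Chek1_R, 5 in Ppm1g_R, 6 in Ppp2r1b_R and 3 in Ctrl_R. Of these 2 rose in Bub1b_R, 1 in Ppm1g_R and 1 in Ppp2r1b_R, 1 fell on the samples labelled Chek1_R, and in Ctrl_R 1 rose and 1 fell. Dusp6, an ERK phosphatase and target, rose in Bub1b_R (0.61), Etv4, an ETS factor, rose in Ppm1g_R (1.00), and Fos rose in Ppp2r1b_R (0.93). Of 9 LIF and STAT3 genes, Junb rose in Ppp2r1b_R (0.67), and 0 were called elsewhere by limma. The adjusted p was passed by 4 in Bub1b_R, 4 on the samples labelled Chek1_R, 3 in Ppm1g_R and 2 in Ctrl_R, all under the fold limit, among them Socs3, a feedback inhibitor of the pathway, at -0.50 in Ppm1g_R (adjusted p = 3.1e-07). At an unadjusted p under 0.05 there were 3 or 4 in each of these, and the t-test gave 2 to 4.

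Among relatives of the members, 8 of 20 were tested. Of these 3 rose and 2 fell on the samples labelled Chek1_R, with Fgf8 at 3.61, Fgf17 at 1.19, Otx1 at 0.80, Fgf15 at -0.87 and Fgf4 at -0.91. In Bub1b_R Fgf8 rose (1.41) and Fgf4 fell, in Ppm1g_R Fgf4 fell, and in Ppp2r1b_R and Ctrl_R Fgf8 rose (1.70 and 0.76).

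**Figure D4:**
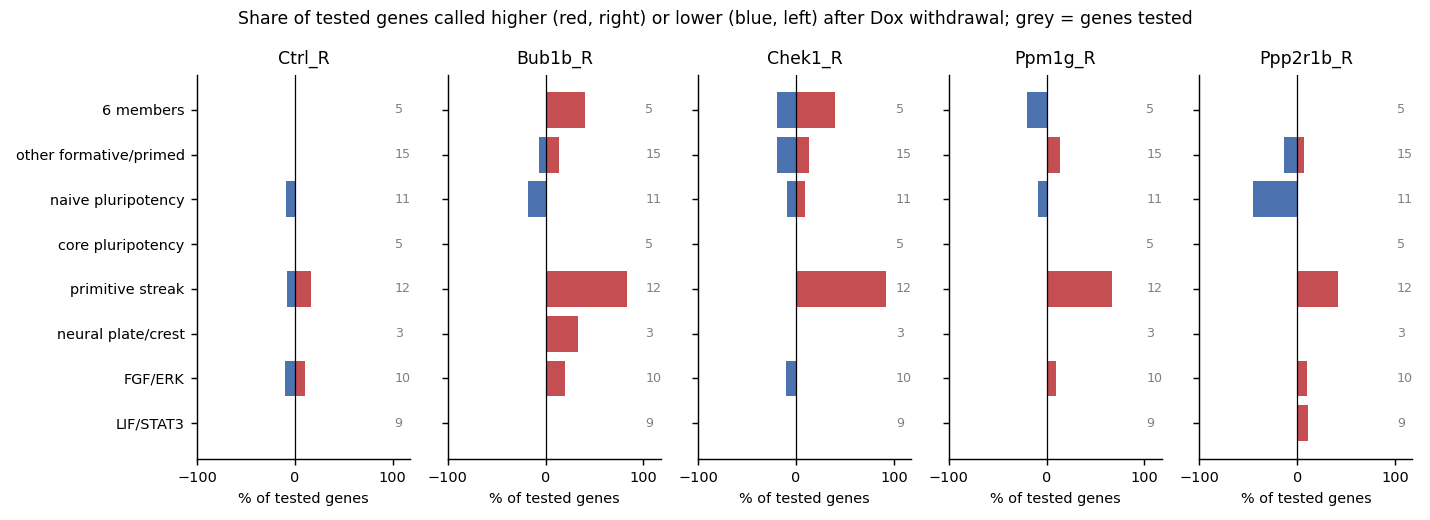
Percent of the tested genes of each list (rows) called higher (red, to the right of 0) or lower (blue, to the left) on Dox withdrawal, in 1 panel per clone, with the number of genes tested in grey. The primitive streak row extends to 10 of 12 genes in Bub1b_R and 11 of 12 on the samples labelled Chek1_R, while the rows of the members and of other formative and primed genes hold calls in either direction across the clones.

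Markers of other cell types moved in part with the members. In bulk RNA a change in the share of cells and a change of RNA per cell cannot be told apart. Of 12 neural plate and crest genes 10 were on the array and 3 passed the filter. Nes, which had the brightest probe and was detected on all 30 arrays, rose in Bub1b_R (0.66). It had changes of 0.56 in Ctrl_R (adjusted p = 0.0013), 0.51 in Ppp2r1b_R and 0.41 in Ppm1g_R, all under the fold limit, and Pax6, Zic1, Pax3, Pax7 and Sox9 were undetected in every group. Their summed level went from 582 to 655 with Dox to 763 to 874 without it in Bub1b_R, and from 398 to 404 to 422 to 458 in Ctrl_R. It went from 539 to 591 up to 593 to 636 on the samples labelled Chek1_R, from 523 to 597 up to 632 to 665 in Ppm1g_R and from 435 to 474 up to 480 to 529 in Ppp2r1b_R, so that the −Dox arrays were the higher ones in all 5. In the other 3 comparisons 0 were called by limma, with 1 or 2 at an unadjusted p under 0.05 and 1 by the t-test, and in Ctrl_R likewise 0, with 1 by each.

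Of 8 extraembryonic endoderm genes tested, 4 rose in Bub1b_R, among them Gata6 (1.29) and Pdgfra (1.44). Sox17 and Sox7, also counted there, were undetected with Dox, with a bound of 1.49-fold for Sox17 and none above 1 for Sox7. Pdgfra also rose in the other 3 clones, by 1.203 on the log2 scale in Ppp2r1b_R. It was undetected with Dox on the samples labelled Chek1_R and in Ppm1g_R, where the rise was at least 4.36-fold and at least 1.92-fold, while Foxa2 was undetected in every group and Dab2 had the brightest probe in every group. Their summed level went from 1255 to 1312 up to 1737 to 1781 in Bub1b_R and from 1450 to 1536 up to 1626 to 1673 in Ctrl_R. It went from 1449 to 1557 up to 1604 to 1773 on the samples labelled Chek1_R and from 1863 to 1997 up to 2283 to 2331 in Ppp2r1b_R, and in Ppm1g_R it was 1350 to 1464 with Dox and 1313 to 1408 without it. Amn fell on the samples labelled Chek1_R (-1.52) and Hnf4a in Ppp2r1b_R (-0.59). Of 5 trophoblast genes tested, 3, 3, 2 and 3 rose in the 4 clones, led by the keratins Krt8 (1.13, 1.17, 0.82 and 0.79) and Krt18, which other epithelial cells also express. In Ctrl_R Krt8 changed by 0.49 (adjusted p = 9.4e-07) and Krt18 by 0.37 (adjusted p = 0.0076), both under the fold limit. Elf5 and Hand1, more specific to trophoblast, were undetected in every group. The summed trophoblast level went from 4755 to 4875 up to 9491 to 9794 in Bub1b_R, from 5531 to 6007 up to 10871 to 11310 on the samples labelled Chek1_R, from 8228 to 8735 up to 13282 to 14758 in Ppm1g_R, from 8290 to 8959 up to 14020 to 14498 in Ppp2r1b_R, and from 2406 to 2562 up to 3078 to 3155 in Ctrl_R. In Ctrl_R 0 of the genes of either list were called, with 3 and 4 at an unadjusted p under 0.05 in limma and 4 and 3 in the t-test.

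Per the study's methods, feeder fibroblasts were removed by a plating step before the 5 days with or without Dox. Because the cells had been kept on fibroblasts until then, 10 fibroblast genes were also read. Of 7 tested, 1 rose in Bub1b_R, 3 rose and 1 fell on the samples labelled Chek1_R, 3 rose and 1 fell in Ppm1g_R and 3 rose in Ppp2r1b_R. Col1a1 had positive changes in all 4 clones (0.58, 1.06, 0.91 and 1.03), of which that in Bub1b_R was just under the fold limit. Dcn rose by 0.68 in Bub1b_R and was undetected with Dox in the other 3 clones, where the rise was at least 1.91-fold on the samples labelled Chek1_R, 1.25-fold in Ppm1g_R and 1.31-fold in Ppp2r1b_R. Col6a1 rose on the samples labelled Chek1_R (0.85) and in Ppp2r1b_R (0.79), Acta2 rose in Ppm1g_R (0.72), and Thy1 fell on the samples labelled Chek1_R (-0.81) and in Ppm1g_R (-0.61). Acta2 had the brightest probe, which sets much of the summed level, and Col1a2, Postn and Lum were undetected in every group. The summed level of the list was 11881 to 12978 with Dox and 13426 to 14283 without it in Bub1b_R, 10703 to 11626 and 8965 to 9320 on the samples labelled Chek1_R, 8409 to 9144 and 11212 to 12124 in Ppm1g_R, 9443 to 9877 and 8897 to 9150 in Ppp2r1b_R, and 8958 to 9632 and 8609 to 8773 in Ctrl_R. In Ctrl_R 0 of the 7 tested genes were called, with 1 at an unadjusted p under 0.05 by limma and by the t-test. The part of these other cell types in the changes of the members was not tested.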

How the data were processed

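The authors deposited, for 30 Illumina mouse WG-8 arrays, a background-corrected signal intensity and a detection p-value for each of 25697 probes, not normalized between arrays; the submitters' processing notes name lumi, and its settings are not given in the sources used here. Some deposited detection p-values had become spreadsheet dates (46 cells of replicate 2 of Ppm1g_R −Dox and 14 cells of replicate 2 of Bub1b_R −Dox, none of a member); 28 and 6 were converted back and the others took the detection p of the nearest signal. Intensities were normalized with neqc (offset 16, quantiles, log2) and fitted with limma 3.58.1 in R 4.3.3 as 10 group means, with 20 residual and 3.38 prior degrees of freedom.

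Probes detected (p under 0.05) on at least 3 arrays were tested (15151 probes, 11177 genes), and the probe with the highest mean stands for a gene. The contrasts are those of the text. Members and named list genes undetected on every array of 1 of the groups compared were given bounds, while counts of calls come from the fit. Replicate arrays correlated with r between 0.990 and 0.997, and no arrays were identical. Equal replicate numbers did not pair arrays (1 of 15 correlations of their deviations over 0.1). Named are the 6 genes, the targeted genes, the 3 most similar genes per tested member, and from each list at most 3 called genes with the largest pooled change and the marker with the brightest probe; other named genes, and the motifs, were chosen after their values were seen. Gene lists were written by hand. The members and lists were chosen with earlier results of these data known. Scripts were tested on simulated data. Alternatives were median scaling, no further background correction, offsets of 50 and 200, neqc within each array set, no or a stricter detection filter (p under 0.01 on all 3 arrays of a group), a fit to only those arrays that are compared, a block for the replicate number, fold limits of 2 or none, the methods' t-test, the mean of a gene's probes and leaving out each array. Leaving out the samples labelled Chek1_R, and exchanging their Dox labels as a bound on what a label error would do, were chosen after seeing the data.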

Additional observations from a re-analysis of the deposited data

Results flagged for a closer look

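Some changes on Dox withdrawal differed between clones by a test of the difference itself. The log2 change of Fgf5 minus that in Ctrl_R was 1.01 in Bub1b_R, 2.48 on the samples labelled Chek1_R and 0.62 in Ppp2r1b_R. For Otx2 it was -0.66 in Ppp2r1b_R, -1.11 in Ppm1g_R and -1.22 on the samples labelled Chek1_R. Each was called by limma's interaction contrast over all probes. Otx2 itself changed by 0.35 in Ctrl_R and by -0.32 in Ppp2r1b_R, both under the fold limit. Fgf5 was undetected on every Ctrl_R array. Its call in Ppp2r1b_R (adjusted p = 0.041) was lost without any 1 of 9 of the 12 arrays. The same call was lost with the replicate numbers as a block and without further background correction. Among the 4 clones the change differed for Fgf5 (F = 48.7), Otx2 (F = 30.5) and Zic2 (F = 9.09), against 26.0% of all tested genes whose F-test passed. As labelled, 11 of 12 primitive streak genes rose on withdrawal on the samples labelled Chek1_R. By qRT-PCR the study reports higher Fgf5, T and Mixl1 after Dox removal in its rescue clones. Chek1 itself was higher without Dox on the samples labelled Chek1_R, which goes against the label if its probe reads the rescue cDNA. With those labels exchanged, the values relative to Ctrl_R there were -2.36 for Fgf5 and 0.52 for Otx2, the latter not called, and F was 134 for Fgf5, 102.1 for Otx2, 9.95 for Zic2 and 5.596 for Pou3f1, whose F-test then passed as well (adjusted p = 0.014). With 3 arrays per group no search for outlying arrays was made.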

How the results depend on the processing

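Of 90 gene and comparison values, 24 kept direction and call under every alternative. Of 1190 pairs of a value and a setting other than leaving out an array 1086 did, while 59 lost the call, 26 gained it and 19 changed sign. A fold limit of 2 can only take calls and took 16, and no fold limit can only add them and added 15. Exchanging the Dox labels gave 12 of the changes of sign, and it turns every change on withdrawal there by construction. The cause of the remaining ones was not tested. With an offset of 200, which shrinks differences of dim probes, called members went from 12 to 6 against Ctrl_R without Dox, from 11 to 5 with Dox and from 1 to 0 in the mean over the 4 clones, where Fgf5 had 0.50. With a fold limit of 2, 2 were called on withdrawal, 7 against Ctrl_R without Dox and 6 with Dox; with no fold limit 11 were called on withdrawal, 1 in Ctrl_R and 3 in the mean. Without the samples labelled Chek1_R, which leaves fewer clones, 3 were called on withdrawal. Without further background correction the F-test passed for 1 member in place of 3, and Fgf5 in Bub1b_R had a change of 0.99 with an adjusted p of 0.33. The methods' t-test gave 11 of 20 member pairs on withdrawal under its threshold and 5 after Benjamini-Hochberg adjustment. Of all 11177 genes, 2926 to 4310 were under that threshold, depending on the clone, and 449 to 2509 after adjustment. The t-test was not run for differences between changes, the mean or the F-test. Normalization within each array set gives no value for comparisons that cross the sets.

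Leaving out 1 array at a time gave 5 to 7 calls on withdrawal, 5 to 7 relative to Ctrl_R, 11 to 12 against Ctrl_R without Dox, 9 to 12 with Dox, 1 in the mean, 3 to 4 in the F-test and 0 in Ctrl_R. With the replicate numbers as a block these counts were 6, 6, 12, 11, 1, 3 and 0; the block took the call from Fgf5 relative to Ctrl_R in Ppp2r1b_R (adjusted p = 0.053) and gave one to Zic2 in Ppm1g_R (adjusted p = 0.021). Correlations of deviations between equal numbers ran from -0.08 to 0.13, so the numbers do not pair the arrays.

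With the Dox labels of the samples labelled Chek1_R exchanged, changes on withdrawal there were -2.42 for Fgf5, 0.87 for Otx2, -0.086 for Pou3f1, -0.71 for Zic2 and 0.039 for Pim2. Relative to Ctrl_R they were -2.36 for Fgf5, 0.52 for Otx2 and -0.97 for Zic2. Against Ctrl_R without Dox Otx2 was at 0.73 and Zic2 at -0.090, and the mean over the 4 clones was -0.14 for Fgf5 and -0.15 for Zic2, with 0 members called in that mean in place of 1 (1 of 5, Pou3f1, passed an unadjusted and an adjusted p under 0.05 in limma, under the fold limit).

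The other values that changed sign were all uncalled. With median scaling Otx2 was at 0.0040 on withdrawal in Bub1b_R and 0.013 against Ctrl_R without Dox on the samples labelled Chek1_R, and Pou3f1 at 0.037 relative to Ctrl_R on those samples. Without further background correction Zic2 was at -0.00017 on withdrawal in Ppp2r1b_R and -0.58 relative to Ctrl_R in Bub1b_R. With the mean of both probes Pim2 was at 0.14 on withdrawal and 0.12 relative to Ctrl_R on the samples labelled Chek1_R. Leaving out 1 array moved Pim2 between -0.22 and 0.20 on withdrawal and between -0.29 and 0.13 relative to Ctrl_R on the samples labelled Chek1_R, between -0.049 and 0.32 relative to Ctrl_R in Ppm1g_R, and in Ppp2r1b_R between -0.68 and 0.11 on withdrawal, -0.75 and 0.044 relative to Ctrl_R, and -0.27 and 0.39 against Ctrl_R without Dox, with -0.14 to 0.23 on withdrawal in Ctrl_R. It moved Zic2 between -0.12 and 0.051 against Ctrl_R without Dox in Ppm1g_R and between -0.14 and 0.22 on withdrawal in Ppp2r1b_R, Pou3f1 between -0.12 and 0.047 relative to Ctrl_R on the samples labelled Chek1_R, and Fgf5 between -0.16 and 0.043 on withdrawal in Ctrl_R. With median scaling the median of all genes against Ctrl_R lay at 0.10 in Bub1b_R without Dox, where the main fit had -0.0044. In Ppp2r1b_R it lay at -0.18 at both Dox states, where the main fit had -0.03.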
